A study of Drosophila melanogaster with 3 samples.

Results

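Small nuclear RNA (snRNA) genes were examined for peaks of GFP-tagged Knirps in fly embryos. Their 32 members are the genes with biotype snRNA on the 6 assembled chromosome arms in the Ensembl release 115 annotation, which holds 13945 protein-coding genes on the same arms. A gene was counted as having a peak when a deposited summit lay within 500 bp of its 5' end. In the authors' optimal list this held for 11 of the 32 genes (34.4%, 95% Wilson interval 20.4 to 51.7), and each of the 11 also had a summit within 500 bp in all 3 replicate lists. The same count over protein-coding genes was 2208 of 13945 (15.8%), and with the 3 replicate lists added 2090 (15%). Knirps is a gap gene product, a zinc-finger repressor of the nuclear receptor family that acts in patterning the embryonic trunk. The chromatin came from whole Drosophila melanogaster embryos of strain kni-GFP, 0 to 14 h old and of both sexes, in which a stably carried transgene expressed Knirps with GFP at its C-terminus. An anti-GFP antibody was used on chromatin sonicated to 200 to 800 bp. The 3 replicates, biological per the labels, formed 1 group from 1 line, and an untagged sample was not analysed here. With 1 group there is no comparison over samples to test, so the values below are descriptions. Counting intervals cover counting error over genes and take no account of shared sequence or shared summits.

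Spliceosomes remove introns from pre-messenger RNA with the help of snRNAs packed with proteins into ribonucleoproteins (snRNPs). U1 pairs with the 5' splice site, U2 with the branch point, and U4, U5 and U6 join as a tri-snRNP, while U11, U12, U4atac and U6atac serve the rare minor class of introns. U7 directs the 3' end processing of histone messages, and 7SK holds the elongation factor P-TEFb in an inactive complex. RNA polymerase II transcribes most of these genes, whereas U6, U6atac and 7SK are made by RNA polymerase III. In flies both kinds of promoter carry a proximal sequence element (PSEA) upstream of the start, which is bound by the factor SNAPc, and the polymerase III promoters add a TATA box. The polymerase of each gene was assigned from this background and not measured here, and LU was assigned to neither.

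Most of the 32 proximal promoters shared 1 short word at a nearly fixed place, whether or not the gene had a peak. Searched on the gene's own strand between bases -70 and -40 from the start, the most widely shared 8-base word was ATTCCCAA. It stood in 26 of 32 promoters, starting between -62 and -56 with a median of -59, against 3 of 13945 protein-coding promoters (0.0215%). Allowing 1 mismatch, 31 of 32 members held it, all but 7SKb, against 1.32% of protein-coding promoters. The exact word was present in 9 of the 11 genes with an optimal summit and in 17 of the 21 without. The letters TATA, looked for between bases -35 and -22 after the sequences had been seen, stood in 5 of 6 polymerase III promoters, in 1 of 25 polymerase II promoters (U4:39B) and in 12.2% of protein-coding promoters. Below are the bases from -70 to -15 of the polymerase III genes, read 5' to 3' from the Release 6 assembly. Of the 6, 5 carry TATA and the shared word with up to 1 mismatch, and the same 5 had an optimal summit. Capitals mark the best match to the shared word and, where found, TATA. In 7SKb, which lacks TATA, that best match differs from the word at 3 bases and is not a copy of it. Their positions are chr3R:7475011-7475066 (minus strand) for 7SKa, chr3R:24556018-24556073 (plus strand) for U6:96Aa, chr3R:24556622-24556677 (plus strand) for U6:96Ab, chr3R:24557145-24557200 (plus strand) for U6:96Ac, chr2L:8389654-8389709 (plus strand) for U6atac and chr3R:23432799-23432854 (plus strand) for 7SKb.
snRNA:7SKa: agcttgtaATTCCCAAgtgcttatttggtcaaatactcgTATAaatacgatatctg
snRNA:U6:96Aa: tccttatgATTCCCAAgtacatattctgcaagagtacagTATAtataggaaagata
snRNA:U6:96Ab: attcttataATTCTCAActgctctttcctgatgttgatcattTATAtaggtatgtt
snRNA:U6:96Ac: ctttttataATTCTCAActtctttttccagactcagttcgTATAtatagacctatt
snRNA:U6atac: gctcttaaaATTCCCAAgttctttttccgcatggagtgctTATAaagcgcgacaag
snRNA:7SKb: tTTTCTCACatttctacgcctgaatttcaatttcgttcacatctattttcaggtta

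A second set shows the same bases of polymerase II genes, chosen as pairs whose transcribed sequences are identical but of which 1 copy had an optimal summit and the other did not (U1:21D with U1:95Cb, and U2:34ABb with U2:34ABc). U5:63BC had the only optimal summit of its type, and U4:39B is the polymerase II promoter with TATA. Capitals again mark the best match to the shared word and TATA. Their positions are chr2L:901669-901724 (minus strand) for U1:21D, chr3R:23827800-23827855 (plus strand) for U1:95Cb, chr2L:13215769-13215824 (plus strand) for U2:34ABb, chr2L:13244576-13244631 (minus strand) for U2:34ABc, chr3L:3090731-3090786 (plus strand) for U5:63BC and chr2L:21215193-21215248 (minus strand) for U4:39B.
snRNA:U1:21D: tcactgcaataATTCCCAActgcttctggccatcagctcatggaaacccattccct
snRNA:U1:95Cb: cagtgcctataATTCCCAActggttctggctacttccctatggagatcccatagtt
snRNA:U2:34ABb: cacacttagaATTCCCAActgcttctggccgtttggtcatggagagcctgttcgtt
snRNA:U2:34ABc: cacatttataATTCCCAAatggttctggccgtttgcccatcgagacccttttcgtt
snRNA:U5:63BC: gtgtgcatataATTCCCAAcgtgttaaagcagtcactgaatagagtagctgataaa
snRNA:U4:39B: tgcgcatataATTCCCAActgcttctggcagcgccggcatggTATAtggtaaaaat

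Both copies of each pair carried the exact word at the same position (-59 in the U1 pair and -60 in the U2 pair), so its presence did not separate the copy with a summit from the copy without. Upstream the pairs differed, with 58.8% identity between U1:21D and U1:95Cb and 59.9% between U2:34ABb and U2:34ABc. Over the 250 bases before the start the U1 copies were 52.2 to 59.9% identical and the U2 copies 51.9 to 81.6%, while their genes were 98.2 to 100% and 98.4 to 100% identical.

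Copies of 1 type differed in whether they had a peak. Optimal summits lay at 3 of 3 U6 genes, the single U6atac gene, 1 of 2 7SK genes, 3 of 5 U1 genes, 2 of 6 U2 genes and 1 of 7 U5 genes. No optimal summit lay at the 3 U4 genes or at the single genes for U7, U11, U12, U4atac and LU. Of the 6 polymerase III genes 5 had an optimal summit (83.3%, 43.6 to 97), and of the 25 polymerase II genes 6 did (24%, 11.5 to 43.4). The lower bound of the polymerase III share lies close to the upper bound of the polymerase II share. The polymerase II interval includes the 15.8% of protein-coding genes with an optimal summit. The difference between polymerases was not tested, and the 5 polymerase III genes rest on 4 distinct summits, since U6:96Ab and U6:96Ac share 1. The polymerase III count also fell under a stricter rule, which added a place among the strongest 7129 peaks of each replicate kept. With all 3 kept, 2 of 6 polymerase III genes (33.3%) and 3 of 25 polymerase II genes (12%) met it. The optimal list itself rests on all 3 replicates, so a replicate left out below still shaped the counts. With replicate 1 left out, and a place among the strongest 7129 peaks of both others required, 2 of 6 polymerase III genes were called (7SKa and U6:96Aa, 33.3%) against 4 of 25 polymerase II genes. Leaving out replicate 3 gave the same counts, and leaving out replicate 2 gave 5 of 6 against 3 of 25. The polymerase II shares were 16%, 12% and 16% without replicates 1, 2 and 3. Protein-coding genes reached 11.1%, 11.2% and 11.4% by the same rule, so the polymerase II shares lay near that background. Among other RNA gene classes, an optimal summit lay at 26 of 290 tRNA genes (8.97%), 22 of 269 snoRNA genes (8.18%) and 329 of 3261 other noncoding RNA genes (10.1%). Bases within 500 bp of an optimal summit made up 4.61% of the 6 arms.

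**Figure D1:**
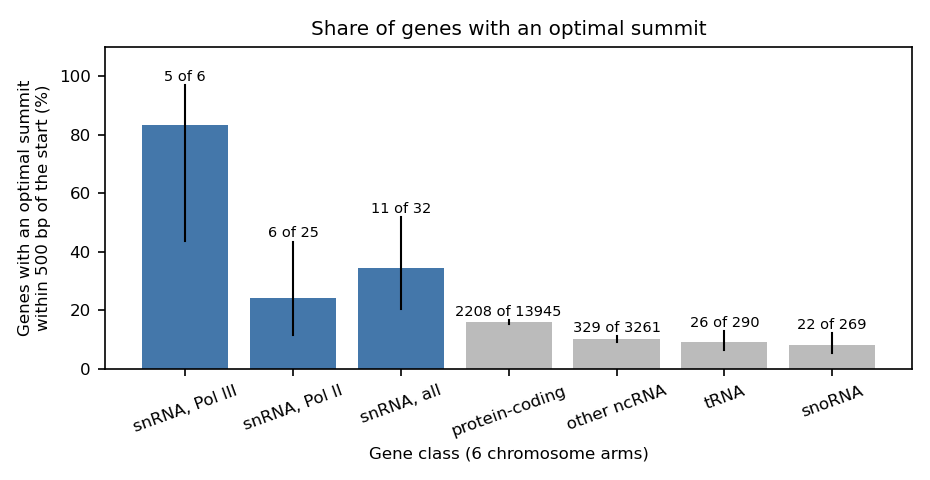
Bars show the share of genes with an optimal summit within 500 bp of the 5' end (y axis, percent) for each gene class, with 95% Wilson intervals as lines and counts above. The snRNA genes of polymerase III stand at 83.3%, those of polymerase II at 24%, protein-coding genes at 15.8% and tRNA genes at 8.97%. The stricter rule in the text adds a place among the strongest peaks of each replicate kept. By that rule the polymerase III share is 33.3% with all 3 kept. It is also 33.3% without replicate 1 or replicate 3, and 83.3% without replicate 2. Protein-coding genes reach 11.1%, 11.2% and 11.4% without replicates 1, 2 and 3.

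The permissive lists, each of 30000 peaks, held summits at more of the genes. In the list of each replicate 20 of 32 snRNA genes (62.5%) had a summit within 500 bp, although the 20 were not the same in each. Protein-coding genes reached 38.9% in replicate 1, 38.5% in replicate 2 and 38.4% in replicate 3. In the pooled list the count was 20 of 32, against 36.5% of protein-coding genes. Across replicates, 17 genes had a summit in all 3 lists, against 27.6% of protein-coding genes, 2 in exactly 2, 5 in 1 and 8 in none. Of the 17, 6 lacked an optimal summit (7SKb, U2:14B, U4:38AB, U4:39B, U4atac and U5:34A). When each replicate list was cut to its strongest 7129 peaks, as many as the optimal list holds, the counts were 9, 7 and 13 in replicates 1 to 3, a mean of 9.67 ± 3.06 (SD, n = 3). By the same rule 16.2%, 15% and 16.6% of protein-coding genes were called, so the 7 of 32 in replicate 2 lay nearest to its background. Of the 11 genes with an optimal summit, 5 were among the strongest 7129 of all 3 replicates, 5 among those of 2 and 1 among those of 1. Asking for an optimal summit and for a place among the strongest 7129 in both remaining replicates gave 6 genes without replicate 1, 8 without replicate 2 and 6 without replicate 3. Protein-coding genes met these requirements in 11.1%, 11.2% and 11.4% of cases. The 5 genes 7SKa, U1:21D, U1:95Ca, U2:34ABb and U6:96Aa met the requirement whichever replicate was left out. Without an optimal summit, U2:34ABc, U4:38AB and U5:34A were among the strongest 7129 of 1 replicate. For U2:34ABc and U5:34A this was the same replicate 3 peak (rank 4756), 386 bp upstream of U2:34ABc and 99 bp downstream of the U5:34A start.

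**Figure D2:**
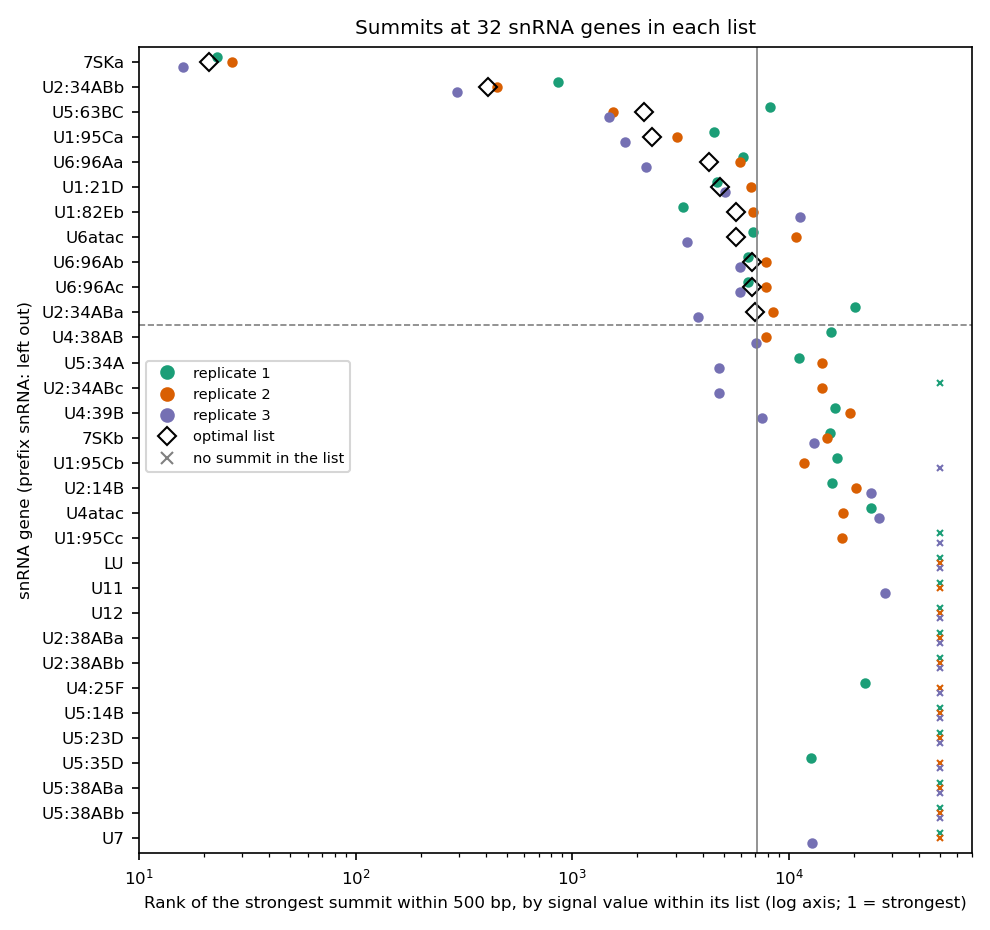
Each row is 1 snRNA gene, and the x axis is the rank of its strongest summit within 500 bp of the start by signal value within a list, on a log axis where 1 is the strongest peak. Dots are the 3 replicates, diamonds the optimal list and crosses genes with no summit in a list, the vertical line marks rank 7129 and the dashed line parts the 11 genes with an optimal summit from the other 21. The 7SKa dots lie at ranks 16 to 27, those of U2:34ABb at 294 to 863, and those of U2:34ABa spread from 3796 to 20154.

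The 7SK locus held the strongest peak among the members. The gene snRNA:7SKa (FBgn0065099) lies at chr3R:7474553-7474996 on the minus strand, outside protein-coding genes and 1215 bp from the nearest coding start, that of CG1142. Its optimal summit had a signal value of 1975, the authors' measure of peak strength over the control on an unstated scale, and ranked 21 of 7129. It lay 164 bp downstream of the start, inside the transcribed part. The strongest summit had signal values of 546 in replicate 1, 742 in replicate 2 and 679 in replicate 3, which can be compared within a list only, and ranked 23, 27 and 16. Those summits stood 177, 161 and 158 bp downstream, so all 3 replicates placed it within 19 bp. Each replicate list also held a weaker summit upstream of the start in the same interval. It stood at -23, -42 and -43 bp in replicates 1 to 3 and ranked 12770, 1567 and 1057. The other gene of the type, 7SKb (FBgn0288809, chr3R:23432869-23433272), is 49.7% identical to 7SKa. Over the 250 bases before the starts the identity was 48.3%, so the genes were hardly more alike than their upstream sequence. 7SKb lies in an intron of CG4374. Its strongest summits ranked 15427, 15054 and 13009 in the replicates, all upstream of the start, and its pooled signal of 110 lay below the lowest optimal value of 188. Every 50-base word within 500 bp of either 7SK start occurred once in the assembly. In a whole-embryo sample, the share of cells that carried a protein at a site and the amount in each cell cannot be told apart.

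All 3 U6 genes, which encode the snRNA at the catalytic core of the spliceosome, lie in a row on the plus strand of 3R. U6:96Aa (FBgn0004188, chr3R:24556088-24556194) lies in an intron of Esyt2, and U6:96Ab (chr3R:24556692-24556798) and U6:96Ac (chr3R:24557215-24557321) follow outside it. The 3 genes are identical over their 107 bases, and the 250 bases before them at most 55.1% identical. The U6:96Aa summit (signal 261, rank 4270) stood 123 bp upstream of its start, and those of the replicates 127, 110 and 177 bp upstream with ranks 6149, 5930 and 2196. Replicate 3 ranked it highest. A second optimal summit (signal 196, rank 6742) lay between the other copies, 119 bp upstream of U6:96Ac and 404 bp downstream of the start of U6:96Ab. In the replicates it ranked 6504, 7876 and 5933 and moved by 1 bp. Of the members with an optimal summit, U6:96Ab was the one farthest from it. The closest gene outside the 500 bp limit, U12, was 2400 bp from an optimal summit.

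U6atac (FBgn0041717, chr2L:8389724-8389820), the minor-class counterpart of U6, had a summit 235 bp upstream with a signal of 219 and rank 5701. Its ranks in the replicates were 6809, 10750 and 3402, and its positions 249, 236 and 235 bp upstream. Replicate 2 placed it below rank 7129 and the other replicates above. The start of the protein-coding gene CG42819 is 393 bp from that of U6atac and 158 bp from the summit, so the summit was nearer to CG42819.

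Of the 5 U1 genes, 3 had an optimal summit, all downstream of the start. U1:95Ca (FBgn0004185, chr3R:23859467-23859630, minus strand) had the strongest, with a signal of 360, rank 2327 and a position 122 bp downstream. It ranked 4530, 3037 and 1754 in the replicates, with summits 252, 133 and 40 bp downstream, a spread of 212 bp. U1:21D (FBgn0003916, chr2L:901491-901654, minus strand) had a signal of 243, rank 4825 and a position 132 bp downstream, and ranked 4664, 6717 and 5061 with summits 39, 106 and 201 bp downstream. For U1:82Eb (FBgn0004183, chr3R:4947933-4948096, minus strand) the signal was 219, the rank 5694 and the position 225 bp downstream. The U1:82Eb summits stood within 17 bp in the replicates, at 203, 220 and 215 bp, but ranked 3249, 6813 and 11282. The position of the summit was thus narrow for U1:82Eb and wide for U1:95Ca and U1:21D. All 3 lie outside protein-coding genes and 3010 to 30422 bp from a coding start. The other U1 copies, U1:95Cb and U1:95Cc, lie in introns of CG34355. U1:95Cb had summits in replicates 1 and 2 (ranks 16736 and 11766, 465 and 476 bp downstream) and none in replicate 3. U1:95Cc had summits in replicate 2 alone, 241 bp upstream (rank 17517) and 64 bp downstream (rank 26106).

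U2:34ABb (FBgn0004192, chr2L:13215839-13216030, plus strand) had the second strongest peak of the members. Its optimal signal was 745 and its rank 408, with the summit 154 bp downstream and inside the gene. The replicates ranked it 863, 450 and 294, and placed it 151, 144 and 156 bp downstream. Within the 3 replicates it was therefore in a narrow range of position and among the strongest 7129 peaks each time. Its start is 489 bp from that of kek4, and the summit was nearer to the snRNA start than to kek4, from which it was 643 bp away. The neighbouring U2:34ABa (FBgn0004191, chr2L:13211925-13212116, minus strand) had the weakest of the members' optimal summits, with a signal of 190, rank 7002 and a position 196 bp downstream. Its ranks were 20154, 8445 and 3796, so it was among the strongest 7129 in replicate 3 alone, at 177, 181 and 190 bp downstream. That optimal summit stood 106 bp from the start of CG15482, closer than to the snRNA start. U2:34ABc, identical to U2:34ABb in its gene, had no summit in replicate 1 and ranked 14253 and 4756 in replicates 2 and 3. Both of those peaks are also counted for U5:34A, whose start is 287 bp away, and weaker summits inside U2:34ABc ranked 22661 and 24226. The strongest pooled summit of U2:34ABc was likewise that of U5:34A, with a signal of 158 and rank 9126. U2:14B had summits in all 3 replicates with ranks 15873, 20346 and 23908. U2:38ABa and U2:38ABb, in introns of sick, had none in any list.

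Among the 7 U5 genes, whose RNA aligns the exons at splicing, U5:63BC alone had an optimal summit. It lies at chr3L:3090801-3090923 (FBgn0003938, plus strand), 8823 bp from the nearest coding start, that of PAN3. The optimal signal was 375 and the rank 2144, with the summit 141 bp downstream, past the end of the 123-base gene. Ranks in the replicates were 8140, 1549 and 1472, and positions 212, 223 and 77 bp downstream. Replicate 1 stood apart in rank and replicate 3 in position. U5:34A had summits in all 3 replicates (ranks 11106, 14253 and 4756), and U5:35D had one in replicate 1 alone (rank 12683). U5:14B, U5:23D, U5:38ABa and U5:38ABb had none in any list.

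The U4 genes and the remaining minor and single-copy genes stayed below the optimal threshold. U4:38AB came closest, with a pooled signal of 160 at rank 8977 and replicate ranks of 15585, 7848 and 7019. U4:39B had a pooled signal of 132 and ranked 16382, 19242 and 7476. U4:25F had a summit in replicate 1 alone (rank 22464). U4atac, which pairs with U6atac in the minor spliceosome, had summits in all 3 replicates at ranks 23991, 17798 and 26186. U11 (rank 27888, 20 bp downstream) and U7 (rank 12792, 30 bp downstream) each had a summit in replicate 3 alone. In that list U7 also had a weaker summit, 247 bp downstream at rank 22263. U12 and LU had none in any of the lists. Over the 21 genes without an optimal summit, 9 had a summit in the pooled list and 12 did not, and the nearest optimal summit was 2400 to 23447 bp away with a median of 8706 bp.

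The members' peaks were spread through the list in strength. The 11 genes shared 10 distinct summits with a median signal of 252 and a range of 190 to 1975, against a median of 292 over all 7129 optimal peaks. Of the 10, 4 ranked in the stronger part of the list above its median rank and 6 below it. Restricting the list to its strongest 3564 peaks left 4 of the 32 genes (7SKa, U1:95Ca, U2:34ABb and U5:63BC), against 8.27% of protein-coding genes. With a limit of 250 bp the count was 10, U6:96Ab being lost, against 11.7% of protein-coding genes, and with 1000 bp it was again 11, against 19.4%.

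Optimal summits at polymerase II genes lay downstream of the start, and those at polymerase III genes on either side. The 6 at polymerase II genes stood 122 to 225 bp downstream. Over both kinds of gene, 4 of the 10 distinct summits fell inside a transcribed part (7SKa, U1:21D, U1:95Ca and U2:34ABb). Of the polymerase III genes 3 had the optimal summit upstream and 2 downstream, from -235 to 404 bp. The summit at 404 bp lies past the end of U6:96Ab and is also the one counted 119 bp upstream of U6:96Ac. Only 7SKa thus had a downstream summit not shared with another member. The pooled list also held polymerase II summits upstream, such as -77 bp at U1:95Ca and -234 bp at U4atac, besides others downstream. In all 11 genes the strongest summit was on the same side of the start in all 3 replicates. The optimal list was drawn from the same replicates, so this is in part built in, and U6:96Ab and U6:96Ac share a summit. The median distance from start to optimal summit was 154 bp (119 to 404). In the replicate lists, taking the nearest summit of each gene, the medians were 119, 110 and 49 bp, a mean of 92.7 ± 38.1 (SD, n = 3). At some genes, such as U1:82Eb, those lists also held a weaker summit nearer to the start.

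**Figure D3:**
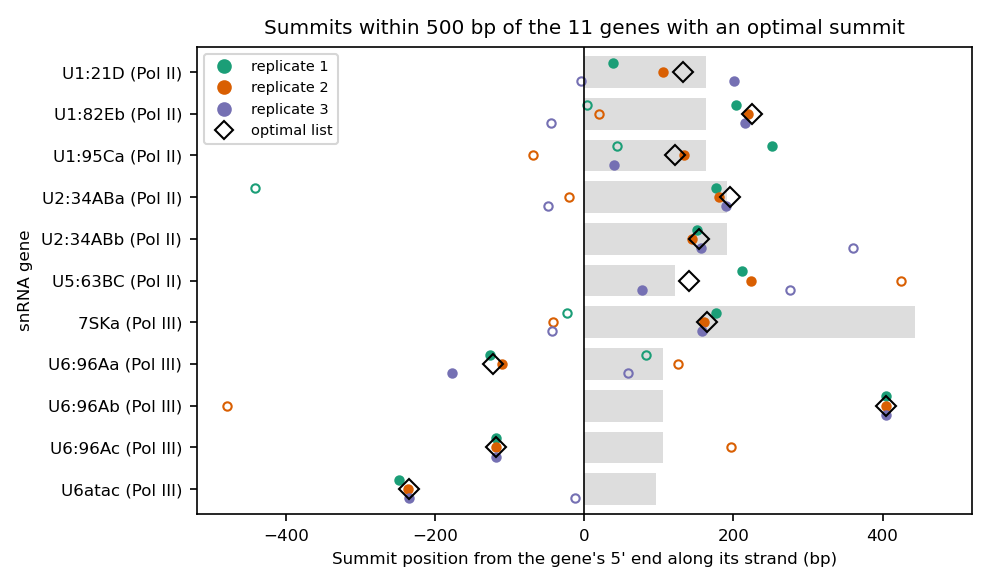
Each row is 1 of the 11 snRNA genes with an optimal summit, and the x axis is the position of a summit from the gene's 5' end along its strand in bp, with the transcribed part as a grey bar. Filled dots are the strongest summit within 500 bp in each replicate, open dots weaker ones, and diamonds the optimal summit. The polymerase II diamonds lie at 122 to 225 bp, and the replicates differ most at U1:95Ca (40 to 252 bp) and least at U6:96Ab and U6:96Ac (1 bp).

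Most of these peaks were not at a protein-coding promoter. Of the 11 genes with an optimal summit, 8 start over 500 bp from any coding start, as do 29 of all 32 members. The 3 members within 500 bp of a coding start (U2:34ABa, U2:34ABb and U6atac) all had a summit. In 9 of the 11 the summit was nearer to the snRNA start than to a coding start. The 500 bp limit fixed this for the 8, which start at least 1215 bp from a coding start. Of the 3 others, the summit was nearer to the snRNA start in U2:34ABb and to the coding start in U2:34ABa and U6atac. Where the gene lies relative to protein-coding genes went with the counts, in a split chosen after the values were seen. Of 16 members inside a protein-coding gene, none of them overlapping its exons, 1 had an optimal summit (U6:96Aa; 6.25%, 1.11 to 28.3), and of 16 outside, 10 had one (62.5%, 38.6 to 81.5). Among tRNA, snoRNA and other noncoding RNA genes, 7.53% of the 1607 inside protein-coding genes and 11.6% of the 2213 outside had one. With a replicate left out, under the requirement on both others used above, the outside count was 5 without replicate 1, 7 without replicate 2 and 5 without replicate 3, and the inside count was 1 each time. The replicate lists showed 5 of the 16 inside and 12 of the 16 outside in all 3. The intronic set includes the 5 genes within sick (U2:38ABa, U2:38ABb, U4:38AB, U5:38ABa and U5:38ABb), which share 1 locus. Of 11 members with another snRNA gene within 1000 bp 3 had an optimal summit, and of the other 21 members 8 did.

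Repeated sequence could affect how reads were placed in these genes, and how the authors treated reads that match several places is not given in the sources used here. Within 500 bp of the start, 82.8 to 100% of 50-base words occurred once in the assembly in the 11 genes with an optimal summit (median 89.5%), and 46.8 to 100% in the 21 without (median 95.4%). Inside the transcribed part the medians were 0% and 49.4%. U1:21D, U1:95Ca and U2:34ABb had no unique 50-base word inside the gene, although their optimal summits lay there, so the position of the summit within those genes is uncertain. Upstream of the start all 50-base words were unique for these 3. The lowest values belonged to U2 copies without an optimal summit, at 46.8% for U2:38ABa, 51.8% for U2:34ABc and 51.9% for U2:38ABb. Content of G and C within 500 bp was alike, with medians of 38.5% and 38.4%. The part of read placement in which copies had a summit was not tested.

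**Figure D4:**
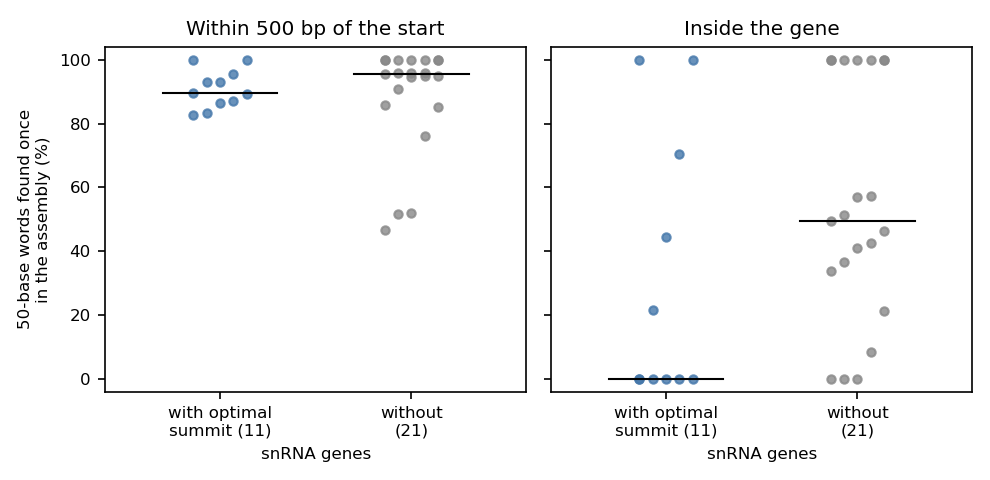
The y axis is the percent of 50-base words that occur once in the assembly, within 500 bp of the start (left) and inside the gene (right), for the 11 snRNA genes with an optimal summit and the 21 without. Each dot is a gene and each line the median, at 89.5% and 95.4% on the left and at 0% and 49.4% on the right.

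Short words for known factors were counted on both strands in the 300-base promoters running from 250 bases before to 50 after each start, and a match is a description of letters only. AGAGCA, a simplified Knirps word, was in 3 of 32 members (9.38%), all 3 with an optimal summit, against 14.3% of protein-coding promoters. It started at base -105 of U5:63BC, at -52 on the other strand of U6:96Ab and at 15 of U6atac. No AGAGCA stood within 100 bp of the 10 members' summits, against 14.1% of all 7129 optimal summits. CAGGTAG, a word bound by the early activator Zelda, was in 6 of the 21 promoters without an optimal summit (U1:95Cb, U2:34ABc, U4:38AB, U5:14B, U5:34A and U5:38ABb) and in 0 of the 11 with one, against 1.64% of protein-coding promoters. U2:34ABc and U5:34A start 287 bp apart on opposite strands and share 1 match. GAGAG, the word of GAGA factor, was in 9 members (28.1%) against 29.7%, and TATCGAT, a part of the word of DREF, in 7SKa alone against 18.2%. TATAAA was in 15 members (46.9%) against 45.8%. Within 100 bp of the 10 summits, TATAAA stood at 5 against 17.3% of all optimal summits, GAGAG at 2 against 37.1%, and CAGGTAG and TATCGAT at 0 against 3.0% and 3.46%. AGAGCA and GAGAG share letters and can overlap in 1 stretch, and TATAAA contains the TATA counted above.

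Genes for the proteins that transcribe snRNA genes, process their ends and build the snRNPs were counted in the same way. Of 46 such genes, 13 had an optimal summit within 500 bp of any of their start sites (28.3%), against 2568 of 13945 protein-coding genes by the same rule (18.4%), and 10 of the 13 also had a summit in all 3 replicate lists. Counting those 3 lists alone gave 15 of the 46, against 30.8% of protein-coding genes, so that share lay near the background. The list was chosen with earlier results known. When a replicate was left out and a place among the strongest 7129 of both others was required, 7 of the 46 genes were called without replicate 1 (against 13.5% of protein-coding genes), 5 without replicate 2 (13.7%) and 6 without replicate 3 (13.9%). These left-out counts lay near the background too. By group the optimal counts were 1 of 3 for SNAPc (33.3%) and 2 of 4 for the TBP family and TFIIIB (50%). Integrator had 3 of 14 (21.4%), snRNP proteins 3 of 16 (18.8%) and assembly and 7SK proteins 4 of 9 (44.4%). The share over all protein-coding genes was 18.4%, the groups are small, and no difference from that share was tested. The TFIIIB subunits Bdp1 (signal 578, rank 804, 99 bp upstream) and Brf (397, rank 1902, 135 bp upstream) had a summit close to the start. Of the 4 called assembly and 7SK genes, bin3 (458) encodes a methyltransferase family member that stabilises 7SK, Larp7 (236) a protein that binds its 3' end, and Hexim (202) an inhibitor that acts on P-TEFb with it. IntS6 (409) encodes a subunit of Integrator, the complex that cleaves the 3' ends of polymerase II snRNAs, SmD3 (384) a part of the Sm ring, Smn (247) the core of the complex that loads that ring, and Pbp49 (243) a subunit of SNAPc. Larp7 and Pbp49 had a summit in 2 of the 3 replicate lists, so no SNAPc gene had one in all 3. Pbp45 and Pbp95, the remaining SNAPc subunits, had no summit in the optimal list or in any replicate list.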

How the data were processed

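ChIP-seq peak lists in narrowPeak format on dm6 were used. The submitters' notes say that the authors called permissive peaks in every replicate and in the pool of all 3 against 1 shared control alignment, and thresholded them on the irreproducible discovery rate for the optimal list. Aligner, caller and versions are not given in the sources used here. Peaks were ranked within a list by the authors' deposited signal, whose scale is unstated. The deposited −log10 q values did not enter the ranks. Read numbers are not in the lists, so depth is unknown.

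Summits (1-based) were matched to 5' ends in Ensembl release 115 with Python 3.11.15, pandas 2.3.3 and numpy 2.4.6, and sequence was read from Release 6 of the genome. The matching was tested on simulated data. Wilson intervals came from scipy 1.17.1. No test across samples was run, since there is 1 group. The members, the protein list and the words were chosen with earlier results of these data known. Named were all members with an optimal summit, all copies of types that differ, all single-copy types, and up to 10 listed proteins by signal. Other distances, list lengths and replicate sets were tried. The dm3 lists were not used.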

Additional observations from a re-analysis of the deposited data

How the results depend on the processing

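The 11 snRNA genes with an optimal summit became 4 with the strongest 3564 optimal peaks and 20 with the pooled list, and 6 to 8 when a replicate was left out and both others had to hold a summit among their strongest 7129 peaks. The 11 with a summit in all lists became 4, 17 and 6 to 8 under the same changes, and 5 with the strongest 7129 peaks of each replicate. The 8 called genes far from coding starts became 3, 17 and 5 to 6, and the 13 protein genes 5, 22 and 5 to 7. These counts fall by construction where fewer peaks are used and rise where more are. Under the cut to the strongest 7129 peaks, leaving a replicate out did not lower the count, since keeping all 3 gave 5 genes. The optimal list rests on all 3 replicates, so a replicate left out still shaped these counts. Distances of 250 and 1000 bp, distance from the gene body and overlap of intervals gave counts within 1.5 times of the main counts of 11, 11, 8 and 13. The median distance was 136.5 to 154 bp, but these settings reuse the pooled summits, and with the replicates' own nearest summits it was 119, 110 and 49 bp. No paired analysis was possible because the 3 replicates form 1 group. Unknown depth, 32 genes and near-identical copies limit what the counts can show.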

Other observations

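Neighbouring snRNA genes differed in their peaks within a few kb. On 2L, U2:34ABa and U2:34ABb start 3723 bp apart on opposite strands, and their optimal signals were 190 and 745. Upstream sequence was most alike between U2:14B and U2:38ABa, at 81.6% identity. U2:14B had summits in all 3 replicate lists, at low ranks (15873, 20346 and 23908 of 30000), and U2:38ABa in none of them. Within 500 bp of the start 85.2% of 50-base words were unique for U2:14B and 46.8% for U2:38ABa. The part of read placement in this contrast was not tested. U2:14B and U5:14B start 555 bp apart on the X, and U5:14B had no summit within 500 bp in any list.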
